A study of Drosophila melanogaster with 15 samples.

Results

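The tubulin genes of Drosophila melanogaster encode the alpha and beta subunits of microtubules. The genes considered, 8 by their symbols, were the ubiquitously used alphaTub84B, alphaTub84D and betaTub56D, and the tissue-specific alphaTub85E, alphaTub67C, betaTub60D, betaTub85D and betaTub97EF. A gene was represented by its highest probe set among those annotated with 1 symbol only. Of the 8 genes, 7 had such a probe set, and each of the 7 had exactly 1. No such probe set was matched to alphaTub84B, which is not analysed here. Genes entered the tests if 3 or more of the 15 arrays showed a log2 value of 4 or higher. By this filter 6 of the genes were tested among 6973 genes in all, 2 ubiquitous and 4 tissue-specific ones. The gene left out by the filter, alphaTub67C, is described by its values alone.

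A microtubule is a hollow polymer of alpha-beta tubulin dimers, found in the mitotic spindle, along axons and, as doublets and triplets, in the walls of cilia and centrioles. Flies carry several genes, or isotypes, for each subunit. Some are used in almost all cells, and others in single tissues such as the male germline, the egg, the mesoderm or sense organs. Centrioles, which form the core of the centrosome, have walls of tubulin, and centrosomes organise microtubules in dividing cells.

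Expression was measured on 15 Affymetrix Drosophila Genome 2.0 arrays, each hybridised with RNA from the brains and discs of wandering larvae in the 3rd instar, tissues rich in dividing cells. The 5 strains, raised at 25 °C, had 3 biological replicates each, and every sample pooled the tissue of 10 larvae. The altered strains were DSas-4 and DSas-6 mutants, both without centrosomes according to the submitters, and SakOE, a Sak overexpression strain described as having an excess of them. The 2 wild types were w67, which the genotype label calls white, and OregonR. The labels used here name no allele, no promoter or driver for Sak, and no clone or shared background, so the strains may differ at loci other than the named one. Each altered strain was compared with both wild types, and all these comparisons share the same 6 wild-type arrays.

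The values were deposited on a log2-like scale from 2.17 to 15.03, and the median of the tested genes lay between 8.69 and 8.86 on every array. Arrays of a strain shared their lowest value, and the 15 arrays showed 4 such values, with only DSas-4 and w67 sharing 1. DSas-4 against w67 is thus the contrast that lies within 1 apparent normalization run. In the others, run and strain cannot be told apart. Sas-4, which builds the centriole wall, lay between 4.66 and 5.10 in DSas-4 arrays, against 7.44 to 7.79 in w67 and 7.58 to 7.76 in OregonR. Sas-6, the cartwheel protein of the centriole, lay between 3.14 and 3.31 in DSas-6 arrays, against 7.63 to 7.82 in w67 and 7.61 to 7.71 in OregonR. The kinase gene SAK, whose product triggers the duplication of centrioles, lay at 7.50 to 7.58 in the arrays labelled SakOE and was thus no higher there, against 7.71 to 7.91 in w67 and 7.39 to 7.60 in OregonR. Which part of the SAK transcript the probe set covers is not known here, so this value does not settle whether Sak was overexpressed. Directions given for SakOE therefore rest on the label. Markers of neurons, glia and imaginal discs averaged 8.78 to 10.06 on every array, so the labelled tissues' markers were present.

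Of the 6 tested tubulin genes, 2 changed in SakOE against both wild types and in opposite directions: alphaTub85E was higher and alphaTub84D was lower. No tubulin gene was called in DSas-4 or DSas-6 mutants. Here a gene is called, and said to rise or fall, when it differed from each of the wild types with the same sign and an adjusted p of at most 0.05 in limma's test. By that rule 10.7% of the 6973 tested genes were called in SakOE, 3.46% higher and 7.24% lower, while the tubulin genes gave 1 of 6 in each direction. In DSas-4 mutants, 0 of 6 tubulin genes were called by limma beside 3.30% of all tested genes, and 0 of 6 had an unadjusted p under 0.05 against both wild types. In DSas-6 mutants, 0 of 6 were called beside 6.15% of all tested genes, and 1, alphaTub84D, had an unadjusted p under 0.05 against both. In such bulk samples, fewer cells of a type and less RNA per cell cannot be told apart. Each probe set has its own response, so levels are compared between strains and not between genes.

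**Figure D1:**
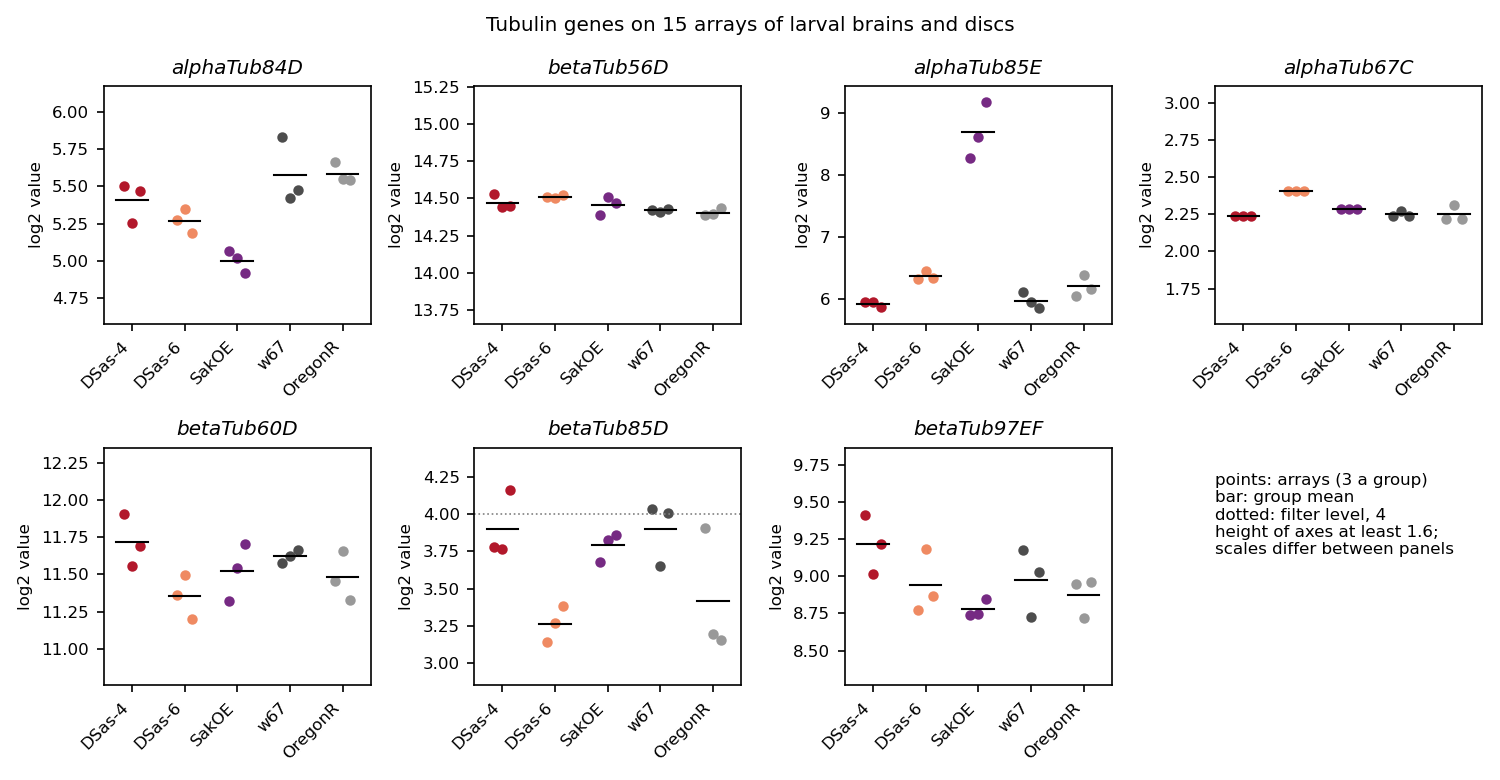
Log2 values of the 7 tubulin genes with a probe set on each of the 15 arrays (1 point per array, bar at the mean of 3 arrays), with 1 panel per gene and its own vertical scale. The SakOE arrays of alphaTub85E, at 8.28 to 9.19, stand above all other arrays, and those of alphaTub84D, at 4.92 to 5.07, below all others.

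Among the ubiquitous isotypes, alphaTub84D (probe set 1633624_s_at, Dmel_CG2512, chromosome arm 3R) encodes an alpha-tubulin nearly identical to that of alphaTub84B. The suffix s_at marks a probe set whose probes may match several transcripts, so signal from alphaTub84B in it is possible. In SakOE arrays, alphaTub84D stood at 5.07, 5.02 and 4.92. In DSas-4 arrays it stood at 5.50, 5.25 and 5.47, and in DSas-6 arrays at 5.27, 5.35 and 5.19. The wild types gave 5.83, 5.42 and 5.47 in w67 and 5.66, 5.55 and 5.54 in OregonR. All SakOE arrays lay below every wild-type array, with a gap of 0.36 between the groups, which was the case for 17.8% of all tested genes. The DSas-6 arrays also lay below every wild-type array, by a gap of 0.08, as did those of 12.0% of the tested genes, while DSas-4 arrays overlapped with w67.

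In SakOE, alphaTub84D averaged 5.0 ± 0.07, against 5.58 ± 0.22 in w67 and 5.58 ± 0.07 in OregonR (log2, SD, n = 3 arrays each). The difference was -0.58 from w67 (SE 0.10, 95% interval -0.79 to -0.36, limma adjusted p = 0.00118) and -0.58 from OregonR (-0.80 to -0.37, adjusted p = 0.00118), which is 1.49-fold and 1.50-fold lower. The median of all tested genes was itself -0.12 between SakOE and w67. After median centring of the arrays, the alphaTub84D difference was -0.45 from w67 and -0.56 from OregonR, and both passed the threshold. The fall was 98th in size among the 505 genes called lower in SakOE, whose median size was 0.31. In DSas-6 mutants alphaTub84D averaged 5.27 ± 0.08. It differed by -0.31 from w67 (limma adjusted p = 0.0434) and by -0.32 from OregonR (adjusted p = 0.051), which places it just outside the call. The difference from w67 missed the threshold after median centring (-0.23), after quantile normalization (-0.15), when only the compared strains were fitted (adjusted p = 0.114), and when w67 replicate 1 (-0.18), w67 replicate 3 (-0.36), or DSas-6 replicate 1 (-0.31), 2 (-0.35) or 3 (-0.27) was left out. Without w67 replicate 2 the gene was called in DSas-6. The difference from OregonR passed in 5 of 12 alternative settings. Among them were median centring (-0.34, limma adjusted p = 0.0407) and a fit of the compared strains only (adjusted p = 0.0246). In DSas-4 mutants alphaTub84D averaged 5.41 ± 0.14, with differences of -0.17 from w67 and -0.18 from OregonR that did not pass. The second became -0.32 and passed after quantile normalization (limma adjusted p = 0.0394). The wild types differed by -0.01, w67 minus OregonR (95% interval -0.22 to 0.21).

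The ubiquitous beta-tubulin betaTub56D (1636530_s_at, Dmel_CG9277, arm 2R) is the main beta subunit of most fly cells. It was among the brightest probe sets, 0.37 to 0.55 below the highest value of each array, and varied little, with a pooled SD within strains of 0.04 against a median of 0.09 over the tested genes. Its values were 14.53, 14.44 and 14.45 in DSas-4, 14.51, 14.50 and 14.52 in DSas-6, and 14.39, 14.51 and 14.47 in SakOE. In w67 they were 14.42, 14.41 and 14.43, and in OregonR 14.39, 14.39 and 14.44. The DSas-6 arrays lay above all 6 wild-type arrays by 0.07, as did those of 5.08% of the tested genes. The DSas-4 arrays did so too, by 0.004, where the share of tested genes was 7.13%. No difference passed limma's test: DSas-6 was 0.09 above w67 (adjusted p = 0.142) and 0.11 above OregonR (95% interval 0.01 to 0.20, adjusted p = 0.123). The intervals of the other 4 comparisons with a wild type reached from -0.06 to 0.16. Signal this near the top of an array's range may be compressed, which was not tested. After median centring, betaTub56D passed against w67 but not against OregonR in DSas-6 (0.17) and in SakOE (0.16).

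The tissue-specific alpha-tubulin alphaTub85E (1623910_at, Dmel_CG9476, arm 3R) is known from the testis, from chordotonal stretch receptors and from cells to which muscles attach. It gave the widest contrast of the family. Its values were 8.28, 8.63 and 9.19 in SakOE. They were 5.95, 5.94 and 5.87 in DSas-4 and 6.32, 6.46 and 6.34 in DSas-6. In w67 they were 6.12, 5.96 and 5.85, and in OregonR 6.05, 6.39 and 6.17. The lowest SakOE array stood 1.89 above the highest wild-type array, and 5.62% of all tested genes had their SakOE arrays above every wild-type array.

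In SakOE, alphaTub85E averaged 8.70 ± 0.46, against 5.98 ± 0.14 in w67 and 6.20 ± 0.17 in OregonR (SD, n = 3 arrays each). The difference from w67 was 2.72 (SE 0.17, 95% interval 2.35 to 3.09), a 6.61-fold higher level (limma adjusted p = 2.27e-07). From OregonR it was 2.50 (2.13 to 2.87), a 5.65-fold higher level (adjusted p = 4.44e-07). It was the 4th largest rise among the 241 genes called higher in SakOE, whose median size was 0.41. The spread among the 3 SakOE arrays was also wide, and leaving out replicate 3, the highest, gave 2.48 against w67 and 2.25 against OregonR. In DSas-6 mutants the mean was 6.37 ± 0.07. The differences were 0.40 from w67 (95% interval 0.03 to 0.76, limma adjusted p = 0.116) and 0.17 from OregonR (adjusted p = 0.571). In DSas-4 mutants the mean was 5.92 ± 0.05, with differences of -0.06 from w67 (-0.43 to 0.31) and -0.28 from OregonR (adjusted p = 0.245). In the order of strain means, SakOE was followed by DSas-6, OregonR, w67 and DSas-4, and no neighbours after the step below SakOE differed beyond the threshold.

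The other tissue-specific alpha gene, alphaTub67C (1630239_at, Dmel_CG8308, arm 3L), supplies a maternal alpha-tubulin to the egg and early embryo. It stayed near the lowest value on all 15 arrays, at 2.24 in each DSas-4 array, 2.41 in each DSas-6 array and 2.29 in each SakOE array. In w67 it gave 2.24, 2.27 and 2.24, and in OregonR 2.22, 2.32 and 2.22. Values so near an array's lowest value have no order, so no difference is read from them.

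Among the tissue-specific beta genes, betaTub60D (1639503_at, Dmel_CG3401, arm 2R) is known from mesoderm, muscle and other tissues, where it can respond to the moulting hormone ecdysone. It was bright in every strain. Its values were 11.91, 11.55 and 11.69 in DSas-4, 11.36, 11.49 and 11.20 in DSas-6, and 11.32, 11.54 and 11.71 in SakOE. In w67 they were 11.57, 11.62 and 11.67, and in OregonR 11.46, 11.65 and 11.33. Every altered strain overlapped with the wild types. The differences from w67 were 0.10 in DSas-4, -0.27 in DSas-6 (limma adjusted p = 0.118) and -0.10 in SakOE. From OregonR they were 0.24, -0.13 and 0.04 in the same order of strains, and none passed.

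The gene betaTub97EF (1625885_at, Dmel_CG4869, arm 3R) encodes a beta isotype known from the gut and from haemocytes, the fly's blood cells. It stood at 9.41, 9.01 and 9.22 in DSas-4, at 8.77, 9.18 and 8.87 in DSas-6 and at 8.74, 8.75 and 8.85 in SakOE. In w67 it stood at 9.18, 8.72 and 9.03, and in OregonR at 8.95, 8.72 and 8.96. All altered strains overlapped with the wild types. DSas-4 mutants had the highest mean, 9.21 ± 0.20, against 8.98 ± 0.23 in w67 and 8.88 ± 0.13 in OregonR. The difference was 0.24 from w67 (limma adjusted p = 0.394) and 0.34 from OregonR (adjusted p = 0.0819). The second of these became 0.44 and passed without DSas-4 replicate 2. The mean of 11 haemocyte markers was 6.22 to 7.43 in DSas-4, 5.05 to 5.44 in DSas-6 and 5.75 to 5.98 in SakOE. In w67 that mean was 5.72 to 6.09, and in OregonR 5.13 to 5.64. DSas-4 replicate 1 had the highest value of both the haemocyte list and betaTub97EF. Other arrays did not run in parallel: DSas-6 replicate 2 had the lowest haemocyte mean, 5.05, while its betaTub97EF value, 9.18, lay above every SakOE array. The mean of 7 gut markers was 2.17 to 2.18 on every array except OregonR replicate 3, where it was 3.68 and betaTub97EF 8.96. Whether haemocytes or gut cells play a part in the level of betaTub97EF was not tested.

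The gene betaTub85D (1624746_at, Dmel_CG9359, arm 3R) makes the beta-tubulin of the male germline, which builds the sperm tail axoneme. It was dim, with 3 of 15 arrays at 4 or above, namely DSas-4 replicate 3 and w67 replicates 1 and 3. The gene entered the tests only through these arrays, so its p-values in contrasts with DSas-4 or w67 depend on the filter. Its values were 3.78, 3.77 and 4.16 in DSas-4, 3.14, 3.27 and 3.38 in DSas-6, and 3.68, 3.83 and 3.86 in SakOE. In w67 they were 4.04, 3.65 and 4.01, and in OregonR 3.91, 3.19 and 3.15. OregonR replicate 1 lay apart from the other OregonR arrays. DSas-6 differed by -0.64 from w67 (limma adjusted p = 0.025) and differed by -0.16 from OregonR (adjusted p = 0.625), so it was not called. Against w67 alone, 2 of 6 tubulin genes passed in DSas-6, this one and alphaTub84D, beside 21.4% of all tested genes. That difference from w67 missed the threshold after median centring (-0.56), after quantile normalization (-0.51), and without DSas-6 replicate 1 (-0.58) or 2 (-0.64) as well as without w67 replicate 1 (-0.57) or w67 replicate 3 (-0.58). DSas-4 was 0.49 above OregonR (adjusted p = 0.0646) and SakOE 0.37 above it (adjusted p = 0.177). Without OregonR replicate 1 these were 0.73 and 0.62 and passed. No fold is given, since the signal of DSas-6, SakOE and OregonR stayed under the filter level on all their arrays.

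**Figure D2:**
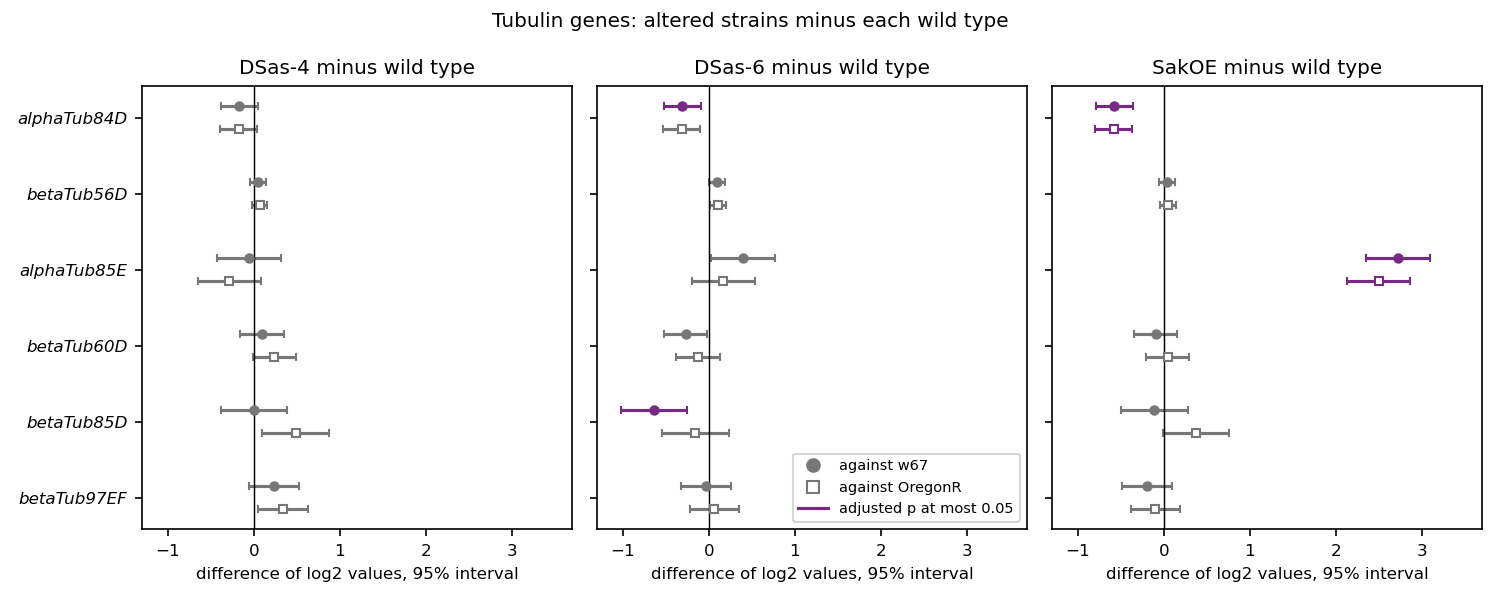
Differences of mean log2 values between each altered strain and each wild type for the 6 tested tubulin genes, with limma's 95% intervals (3 panels, DSas-4, DSas-6 and SakOE; filled circles against w67, open squares against OregonR; coloured where the adjusted p is at most 0.05). In SakOE, alphaTub85E lies at 2.72 and 2.50 and alphaTub84D at -0.58 against both, while most other intervals cross 0.

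Of the 2 ubiquitous genes tested, 1 fell in SakOE, where 7.24% of all tested genes fell, and of the 4 tissue-specific ones 1 rose, where 3.46% rose. The median SakOE difference from w67 was -0.27 over the ubiquitous and -0.10 over the tissue-specific genes, and from OregonR -0.27 and 0.21. No difference between these classes was tested. The median difference of the 6 genes from w67 was 0.03 in DSas-4, -0.15 in DSas-6 and -0.10 in SakOE, beside -0.01, -0.08 and -0.12 over all tested genes. From OregonR it was 0.15, -0.03 and 0.05, beside 0.08, 0.01 and -0.02. Between the wild types, w67 minus OregonR, 0 of 6 tubulin genes passed limma's test, beside 15.7% of all tested genes, and 1 had an unadjusted p under 0.05. That 1 was betaTub85D, with a difference of 0.48 (adjusted p = 0.0842) that became 0.73 and passed without OregonR replicate 1. This gene passed the filter through arrays of w67 and DSas-4, and through none of OregonR.

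The altered strains were also compared with each other. Between SakOE and DSas-4, 3 of 6 tubulin genes passed, beside 34.2% of all tested genes. The difference for alphaTub85E was 2.78, a 6.87-fold higher level in SakOE (limma adjusted p = 1.56e-07). For alphaTub84D it was -0.41 (adjusted p = 0.00798) and for betaTub97EF -0.44 (95% interval -0.73 to -0.15, adjusted p = 0.0242). The median of all tested genes was -0.11 in this contrast. The alphaTub84D difference was -0.30 after median centring and -0.20 after quantile normalization, and that of betaTub97EF was -0.32 after either. None of these 4 values passed. The betaTub97EF difference also missed the threshold without DSas-4 replicate 1 (-0.34) or 3 (-0.43) or SakOE replicate 1 or 2 (-0.42 each).

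Between SakOE and DSas-6, 1 of 6 passed beside 16.6% of all tested genes. It was alphaTub85E, at 2.33 or 5.02-fold higher in SakOE (limma adjusted p = 9.8e-07). The alphaTub84D difference was -0.27 (95% interval -0.48 to -0.05, adjusted p = 0.083). The 2 mutants labelled as lacking centrosomes differed from each other in 2 of 6 genes, beside 25.0% of all tested genes. These were betaTub60D, 0.37 higher in DSas-4 (95% interval 0.11 to 0.62, limma adjusted p = 0.0371), and betaTub85D, 0.64 higher in DSas-4 (adjusted p = 0.0204). Since betaTub85D passed the filter only through arrays of DSas-4 and w67, its p here depends on the filter. The betaTub60D difference no longer passed after median centring (0.30), after quantile normalization (0.32), or without DSas-4 replicate 1 (0.27) or 3 (0.38) or DSas-6 replicate 1 (0.37) or 3 (0.29). Nor did it pass when only these strains were fitted (adjusted p = 0.077). The betaTub85D difference did not pass after quantile normalization (0.46) or without DSas-4 replicate 3 (0.51) or DSas-6 replicate 1 (0.58) or 2 (0.64). For alphaTub85E, DSas-4 minus DSas-6 was -0.45 (adjusted p = 0.0703). It passed after quantile normalization (-0.59, adjusted p = 0.0309) and when only these strains were fitted (adjusted p = 0.00595).

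The genes next to the called tubulin genes were then examined, since both lie on chromosome arm 3R. Among the 10 nearest tested genes on each side of alphaTub85E, 3 of 20 or 15% were called in SakOE, beside 14.0% of the 1730 tested genes of the arm. The spermidine synthase gene SpdS was higher, by 0.25 in the smaller of its differences from the wild types, as was eca by 0.42. Snap24, a SNARE protein gene of membrane fusion, was lower (-0.33). The genes directly beside alphaTub85E were not called: FoxP, a forkhead transcription factor gene, differed by 0.00 from w67 and 0.33 from OregonR, and side-VII by -0.40 and 0.10. Around alphaTub84D, 4 of 20 or 20% were called. The serine protease gene Sp7 (0.48) and CG2993 (1.39) were higher, while lap, which encodes a clathrin adaptor (-0.24), and CG31473 (-0.33) were lower. None of the neighbours differed by as much as alphaTub85E.

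**Figure D3:**
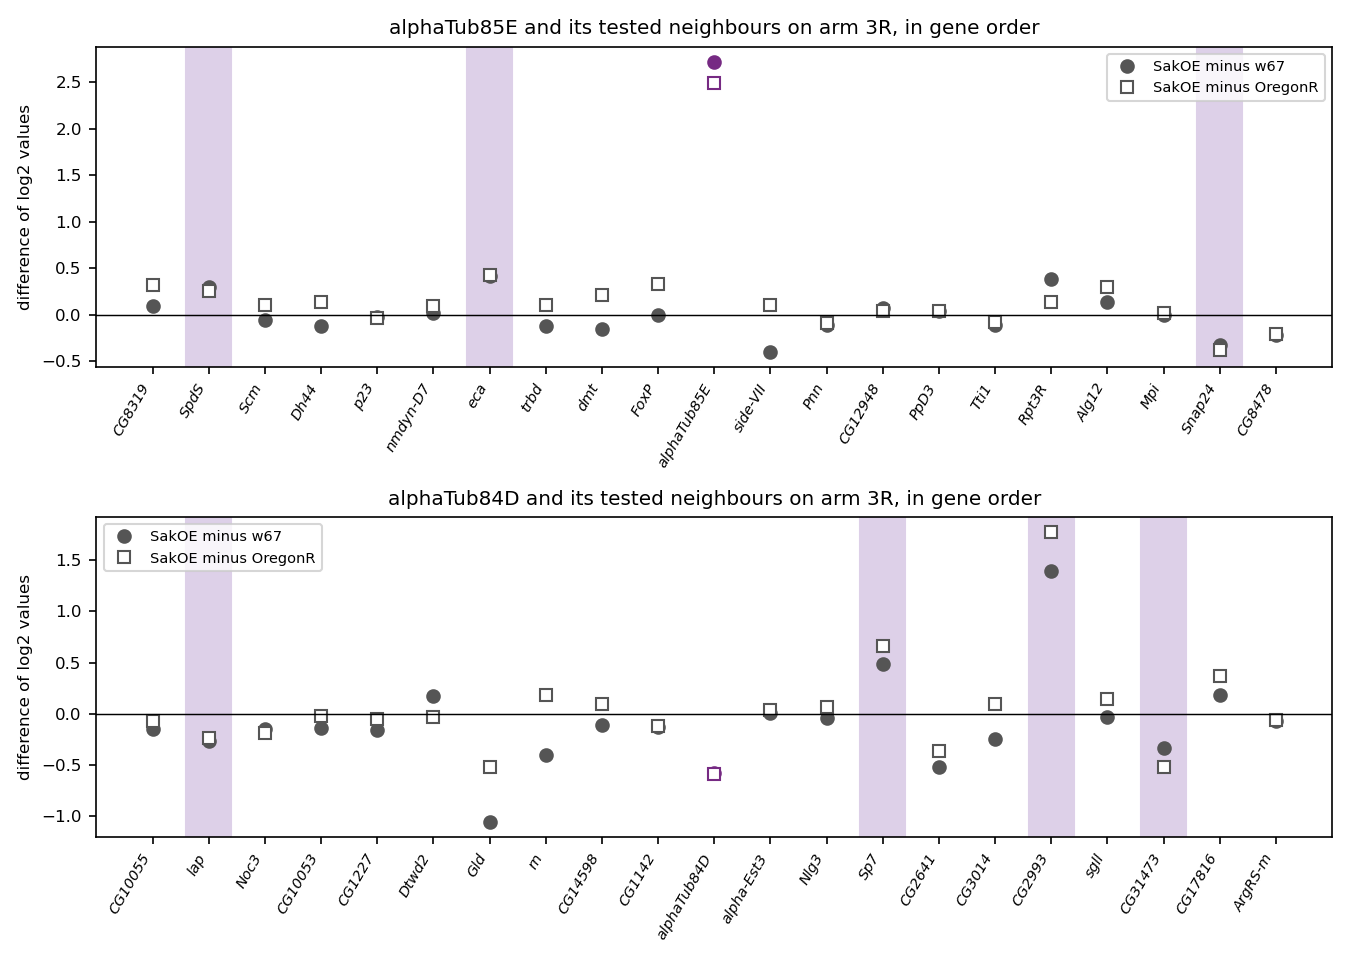
Differences of mean log2 values, SakOE minus each wild type, for alphaTub84D and alphaTub85E (coloured) and the 10 tested genes on either side in gene order on arm 3R (filled circles against w67, open squares against OregonR). The points of alphaTub85E, at 2.72 and 2.50, stand above its neighbours, whereas the largest value beside alphaTub84D belongs to CG2993 at 1.39 and 1.78.

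The genes most like each called tubulin gene were taken as the 3 with the highest Pearson r of log2 values over the 15 arrays, out of 6973. For alphaTub85E these were CG32055 (r = 0.979), P58IPK (0.977) and CG2004 (0.976), and each was called higher in SakOE. CG32055 averaged 7.81 ± 0.73 in SakOE and between 2.18 and 2.32 in the other strains. It passed the filter only through the SakOE arrays, so its call depends on the filter. P58IPK, a co-chaperone gene of the endoplasmic reticulum, averaged 10.97 ± 0.12 in SakOE, against 9.89 ± 0.07 in w67 and 9.98 ± 0.05 in OregonR. CG2004 averaged 10.85 ± 0.12 in SakOE, against 9.74 ± 0.07 in w67 and 9.95 ± 0.03 in OregonR. Over the 12 arrays of the other strains r was -0.49 for CG32055, 0.21 for P58IPK and 0.52 for CG2004, so the likeness rests on the SakOE arrays. The -0.49 comes from values near the lowest, which have no order. For alphaTub84D the genes were CG10903 (r = 0.927), CG15282 (0.894) and Atg10 (0.890), an autophagy gene. All were called lower in SakOE, and over the other 12 arrays their r was 0.85, 0.72 and 0.84. For both tubulin genes the choice used all 15 arrays, so neither the SakOE calls nor these r are independent of it. CG10903 averaged 9.28 ± 0.00 in SakOE, against 9.75 ± 0.10 in w67 and 9.71 ± 0.02 in OregonR.

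Since alphaTub85E is known from the testis, chordotonal organs and muscle attachment, markers of testis, chordotonal organs, muscle and ovary were read beside it. No list held markers of the cells to which muscles attach. The mean over 10 muscle markers was 3.14 to 3.25 in SakOE, 3.33 to 3.52 in DSas-4 and 3.37 to 3.59 in DSas-6, against 3.30 to 3.44 in w67 and 3.40 to 3.51 in OregonR. In SakOE, as in DSas-4 and w67, 8 of the 10 genes, Act88F, Mlc1, Mlc2, Mlp60A, Mlp84B, Prm, Tm2 and up, stayed under 4 on all arrays, so no order of strains is read from that mean. Of the tested muscle markers, the titin-like gene sls differed by 0.49 from w67 and 0.52 from OregonR in SakOE and did not pass. The gene bt, also titin-like, differed by -0.33 in the smaller of its SakOE differences and was not called. In DSas-6, sls was called higher, by 0.62 in the smaller of its differences. The mean over 7 chordotonal organ markers was 3.31 to 3.36 in SakOE, 3.37 to 3.43 in DSas-4 and 3.27 to 3.33 in DSas-6, against 3.37 to 3.49 in w67 and 3.21 to 3.24 in OregonR. In SakOE the mechanosensory channel genes nompC, iav and nan, the structural gene nompA and the regulator fd3F stayed under 4 on every array.

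The mean over 17 testis markers was 2.48 to 2.51 in SakOE, 2.50 to 2.56 in DSas-4 and 2.49 to 2.50 in DSas-6. In w67 it was 2.51 to 2.52, and likewise in OregonR. In each strain at most 2 of these genes reached 4, namely mia in every strain and bam in DSas-4. The meiotic arrest genes aly, can, comr, sa, nht, tomb and topi and the sperm genes dj, fzo, Mst87F and ProtA were under 4 on every array. None of 8 ovary and germline markers reached 4 on any array, as was the case for alphaTub67C. Few of these markers could be called: 2 muscle, 2 chordotonal, 1 testis and 0 ovary markers passed the filter, and none of them was called in SakOE, beside 10.7% of all tested genes.

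**Figure D4:**
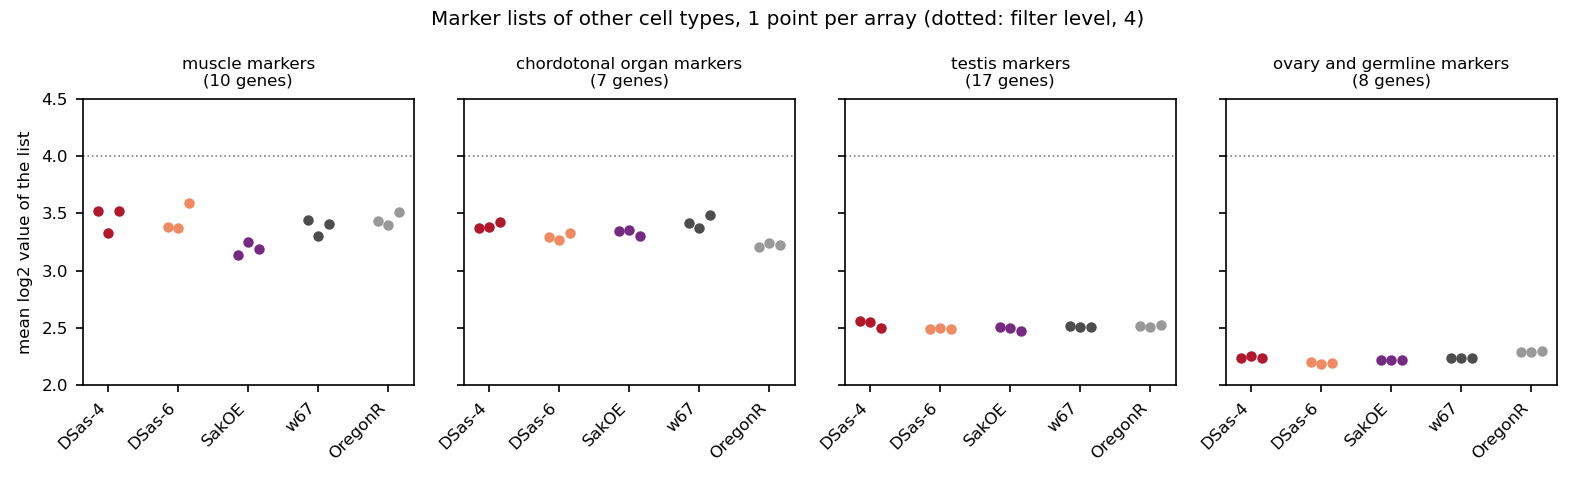
Mean log2 value of the marker lists of other tissues on each array (1 point per array, 1 panel per list, strains along the horizontal axis, dotted line at the filter level of 4). The muscle list, at 3.14 to 3.59, and the testis list, at 2.48 to 2.56, stay under the filter level on every array.

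Genes that fold, modify or bind tubulin were read as lists, chosen by function. Of 51 such genes 40 were tested, and 0 of 40 were called by limma in any altered strain against both wild types, beside 3.30% of all tested genes in DSas-4, 6.15% in DSas-6 and 10.7% in SakOE. Those that differed from each wild type with the same sign at an unadjusted p under 0.05 numbered 2 of 40 in DSas-4, 6 in DSas-6 and 5 in SakOE, beside 651, 936 and 1327 of the 6973 tested genes. Against OregonR alone, 6 of the 40 were higher by limma's test in DSas-4, 4 in DSas-6 and 3 in SakOE, and none lower. Of the 6973 tested genes, 1427, 548 and 591 were higher and 309, 423 and 678 lower in these contrasts.

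The CCT chaperonin, which folds newly made tubulin and actin, had all 8 subunit genes tested. Their differences from w67 ranged from 0.03 to 0.10 in DSas-4, from -0.02 to 0.20 in DSas-6 and from -0.11 to 0.06 in SakOE. In DSas-6, 1 of the 8 passed against w67, higher, as did 213 of the 6973 tested genes. Of the 10 tested genes of prefoldin, which hands tubulin to CCT, and of the tubulin cofactors, which assemble the dimer, all lay within 0.17 of w67 in every altered strain. From OregonR these 10 ranged from -0.09 to 0.28 in DSas-4, where 1 passed, higher. The range was -0.06 to 0.22 in DSas-6, where 2 passed, higher, and -0.14 to 0.09 in SakOE, where none passed. Of the 7 tested enzymes that modify tubulin, 4 passed limma's test between SakOE and w67, all lower: the ligase-like genes TTLL4A (-0.27), TTLL4B (-0.33) and TTLL5 (-0.20), and the deacetylase gene Sirt2 (-0.21). Their differences from OregonR, 0.04, -0.26, -0.18 and -0.16 in that order, did not pass. Of the 15 tested microtubule-associated proteins, 4 passed in the same contrast, again lower: the polymerase msps (-0.17), the plus-end binder CLIP-190 (-0.24), the severing protein kat-60L1 (-0.45) and the depolymerase Klp10A (-0.42). Against OregonR these differed by -0.08, -0.05, -0.25 and -0.18, and none passed. The subunit gene CCT7 (-0.11) and the cofactor gene Tbcc (-0.17) passed against w67 as well, so that 10 of the 40 genes were lower in that single contrast. There, 28.1% of all tested genes were lower, and the median of all was -0.12. These 10 genes were named after their values were seen, and the difference between the contrasts was not tested.

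**Figure D5:**
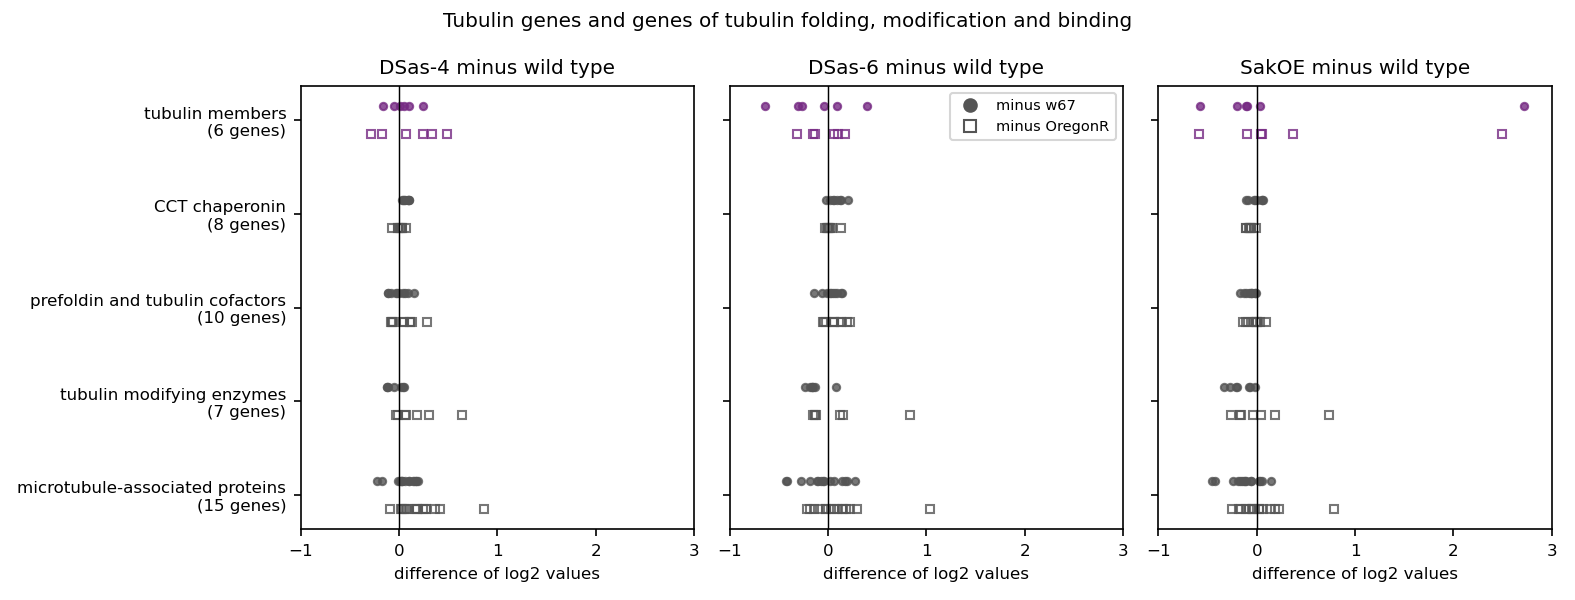
Differences of mean log2 values from each wild type for the tubulin genes and for 4 lists of genes that fold, modify or bind tubulin, with 1 point per gene and 1 panel per altered strain (filled circles minus w67, open squares minus OregonR). Apart from alphaTub85E in SakOE, at 2.72 and 2.50, and the open squares of TTLL6B and futsch on the right of each panel, list genes reach from -0.45 (kat-60L1 in SakOE) to 0.41 (Klp10A in DSas-4).

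Further tubulin genes gave no level to compare. The probe sets of gammaTub37C, a maternal gamma-tubulin of centrosomes, and of betaTub65B stayed under 4 on all 15 arrays. No probe set with 1 symbol was matched to gammaTub23C, which is not analysed here.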

How the data were processed

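RNA of 15 samples was hybridised to 1 single-colour array each. The deposited log2 values come from the authors' GCRMA, per the submitters' processing notes, which also name limma. Versions are not given in the sources used here, and the log2 scale is inferred from that note and the range. Of 18952 probe sets, 13647 had 1 symbol in the platform's annotation, 402 several and 4903 none. Arms and neighbours come from RefSeq's table of fly genes (assembly Release 6). No genome was used.

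All 15 arrays entered 1 fit with a mean per strain by lmFit and eBayes of limma 3.58.1 under R 4.3.3, two-sided, with Benjamini-Hochberg adjustment over 6973 genes within each contrast. The fit was tested on simulated data. Groups and replicate numbers come from the sample titles. Precision is limited by the 3 arrays per strain. The members and lists were chosen with earlier results of these data known. Named are all members, the 3 most correlated genes and called neighbours of called members, Sas-4, Sas-6 and SAK. None of the genes that fold, modify or bind tubulin was called, and those named were chosen after their values were seen. Alternatives were median centring, quantile normalization, no filter, a filter at 6, the mean of a gene's probe sets, a replicate block, a fit of the compared strains alone, and leaving out each replicate. Replicate numbers showed no pairing over all strains together.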

Additional observations from a re-analysis of the deposited data

How the results depend on the processing

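The rise of alphaTub85E and the fall of alphaTub84D in SakOE passed against both wild types in every alternative in which the gene was tested. For alphaTub85E the range was 2.48 to 2.93 against w67 and 2.25 to 2.71 against OregonR (limma, adjusted p at most 0.000911). For alphaTub84D it was -0.65 to -0.39 and -0.62 to -0.53 (adjusted p at most 0.0175). The filter at 6 removed alphaTub84D and betaTub85D and gave no value for them, which left 1 tubulin gene called in SakOE instead of 2, and 1 instead of 2 between DSas-4 and DSas-6.

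In DSas-6 the count of called tubulin genes, 0, became 3 with no filter (alphaTub67C near the lowest value, alphaTub84D and betaTub56D), and 1 (alphaTub84D) with the mean of all probe sets. Between SakOE and DSas-4 the count of 3 became 1 after median centring and 1 after quantile normalization. Between SakOE and DSas-6 the count of 1 became 2 after median centring, 2 with no filter, and 3 when only the compared strains were fitted. Between DSas-4 and DSas-6 the count of 2 became 1 after median centring (betaTub85D) and 1 after quantile normalization (alphaTub85E, not among the 2). Leaving out replicates gave 0 in DSas-4, 0 to 1 in DSas-6, 2 in SakOE, 0 to 1 for w67 against OregonR, 2 to 3 for SakOE against DSas-4, 1 for SakOE against DSas-6 and 0 to 2 for DSas-4 against DSas-6.

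Over all genes, no filter gave 1168 calls in DSas-6 instead of 429, 1374 in SakOE instead of 746, 4942 between w67 and OregonR instead of 1095, 6131 between SakOE and DSas-4 instead of 2387, 4715 between SakOE and DSas-6 instead of 1158, and 5283 between DSas-4 and DSas-6 instead of 1744. The unfiltered genes include those at the lowest value, which differs between strains. Centring gave 497 between w67 and OregonR and 1518 between SakOE and DSas-4, and quantile normalization gave 504 and 1479. Fitting only DSas-4 and DSas-6 gave 1145. The share called higher in SakOE was 32.3%, and became 56.2% after centring (363 higher, 283 lower) and 55.7% after quantile normalization. In DSas-6 it was 34.7%, and became 45.4% after quantile normalization. In DSas-4 it was 53.5%, and became 43.2% (105 higher, 138 lower). Leaving out replicates gave 159 to 219 in DSas-4, 253 to 404 in DSas-6, 520 to 672 in SakOE, 606 to 931 for w67 against OregonR, 1637 to 2336 for SakOE against DSas-4, 765 to 1098 for SakOE against DSas-6 and 1163 to 1614 for DSas-4 against DSas-6.

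With the replicate number as a block, 204 genes were called in DSas-4, 395 in DSas-6, 679 in SakOE and 932 between w67 and OregonR. The tubulin count was then 1 in DSas-6 (alphaTub84D) and 1 between DSas-4 and DSas-6 (betaTub85D), where betaTub60D was lost (adjusted p = 0.0573). Over all strains together the number showed no pairing. Same-numbered arrays of different strains had deviations correlated at -0.32 to 0.31 (median -0.05), and differently numbered ones at -0.37 to 0.35 (median 0.02). Between DSas-4 and w67, which share a lowest value, same-numbered arrays gave 0.30, 0.18 and 0.12. Differently numbered ones gave -0.30 to 0.10 there. Whether these 2 strains were paired was not tested.

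Some tubulin differences that did not pass on either side changed sign. After median centring these were betaTub56D in DSas-4 minus OregonR (-0.024), w67 minus OregonR (-0.087) and SakOE minus DSas-4 (0.10), betaTub60D in SakOE minus w67 (0.024), betaTub85D in SakOE minus w67 (0.012), and betaTub97EF in DSas-6 minus w67 (0.044) and w67 minus OregonR (-0.00082). After quantile normalization they were alphaTub84D in DSas-4 minus DSas-6 (-0.036), betaTub56D in w67 minus OregonR (-0.016), SakOE minus DSas-4 (0.019) and SakOE minus DSas-6 (0.011), betaTub85D in DSas-4 minus w67 (-0.048), SakOE minus w67 (0.012) and SakOE minus DSas-4 (0.060), and betaTub97EF in DSas-6 minus w67 (0.023). Leaving out replicates gave both signs for alphaTub84D in w67 minus OregonR (-0.14 to 0.068), betaTub56D in SakOE minus DSas-4 (-0.042 to 0.018) and alphaTub85E in DSas-4 minus w67 (-0.12 to 0.015). It did so for betaTub60D in DSas-4 minus w67 (-7.2e-05 to 0.18), SakOE minus w67 (-0.19 to 0.0027) and SakOE minus OregonR (-0.049 to 0.14), and for betaTub85D in DSas-4 minus w67 (-0.12 to 0.072), DSas-6 minus OregonR (-0.29 to 0.089) and SakOE minus DSas-4 (-0.18 to 0.014). It also did so for betaTub97EF in DSas-6 minus w67 (-0.16 to 0.065), DSas-6 minus OregonR (-0.056 to 0.15) and w67 minus OregonR (-0.00067 to 0.23). The cause of these changes was not tested.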

Other observations

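Of the 40 tested genes that fold, modify or bind tubulin, 6 were higher in w67 than in OregonR by limma's test and none lower. Of the 6973 tested genes, 961 were higher and 134 lower. The share of higher genes among all that passed was 87.8%, and 48.9% after median centring. The 2 with the largest differences are described here, singled out after their values were seen. The gene futsch, the fly homologue of the axonal microtubule-binding protein MAP1B, averaged 9.62 ± 0.07 in DSas-4, 9.79 ± 0.22 in DSas-6, 9.54 ± 0.07 in SakOE and 9.52 ± 0.13 in w67, against 8.75 ± 0.04 in OregonR (log2, SD, n = 3 arrays each). The difference of futsch between w67 and OregonR was 0.76 (limma adjusted p = 0.000336), and its differences from w67 were 0.10 in DSas-4, 0.27 in DSas-6 and 0.02 in SakOE, none of which passed. TTLL6B, which encodes a ligase-like enzyme of the tubulin glutamylase family, averaged 4.01 ± 0.17 in DSas-4, 4.21 ± 0.13 in DSas-6, 4.11 ± 0.15 in SakOE and 4.13 ± 0.03 in w67, against 3.37 ± 0.14 in OregonR. Its difference between w67 and OregonR was also 0.76 (limma adjusted p = 0.000521). TTLL6B was under the filter level of 4 in OregonR and entered the tests through the other strains, so this p depends on the filter. OregonR has a lowest value of its own, so strain and normalization run cannot be told apart here.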
